A study of Mus musculus with 4 samples.

Results

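The genes described are 9 regulators of hormone-driven transcription: the corticoid receptor genes Nr3c1 and Nr3c2, the orphan receptor genes Nr4a1, Nr4a2 and Nr4a3, the coactivator genes Ncoa1, Ncoa2 and Ncoa3, and the corepressor gene Ncor1. They are 9 of 21887 protein-coding genes in the RefSeq table for GRCm38, the assembly behind mm10, and all matched it by symbol. The set was proposed with these peak lists already known and was in part selected on the presence and fold enrichment of PHF2 peaks, so its counts are descriptions and carry no test. A peak was assigned to a gene when it overlapped the gene body or the 5 kb on each side by at least 1 bp.

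The data are peak lists from CUT&RUN, in which an antibody guides a nuclease to release the DNA around its target, on the gastrocnemius (calf) muscle. The mice were C57BL/6 males aged 4 weeks. Ctrl muscle carried Phf2 flox/flox without Acta1-Cre and KO muscle carried Phf2 flox/flox with it, so both genotypes carried the floxed alleles. Each was assayed with an antibody to PHF2 and with IgG, a non-specific antibody, which gave 4 groups of 1 library. Acta1-Cre acts in muscle fibres, so other cells of the tissue keep Phf2 by this design. The labels used here do not say how many animals a library holds. The lists held 1621 (Ctrl PHF2), 161 (KO PHF2), 77 (Ctrl IgG) and 152 (KO IgG) peaks. Total reads are unknown, and peak lists measure neither expression nor the deletion, so the tissue and genotype labels were not checked by them. With 1 library a group there was no test between genotypes, and intervals are 95% intervals for counting error only.

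PHF2 is a protein of the JmjC demethylase family with a PHD finger that binds methylated histone tails at active promoters. Nr3c1 encodes the glucocorticoid receptor, through which cortisol-like hormones drive protein breakdown in muscle, and Nr3c2 the mineralocorticoid receptor, which binds the same hormones. The Nr4a genes encode orphan receptors that muscle induces quickly after exercise or adrenergic stimulation, and the Ncoa and Ncor1 products are coregulators that recruit histone-modifying enzymes to such receptors.

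In Ctrl muscle, PHF2 peaks lay at 6 of the 9 genes: both corticoid receptor genes, Nr4a3, Ncoa1, Ncoa2 and Ncor1. Nr4a1, Nr4a2 and Ncoa3 had none. In KO muscle only Nr3c1 had a PHF2 peak, and neither IgG list had a peak at any of the 9. Over all protein-coding genes and the same windows, 7.38% had a Ctrl PHF2 peak, 0.713% a KO PHF2 peak, 0.064% a Ctrl IgG peak and 0.155% a KO IgG peak. The 9 genes are long, with a median of 109 kb against 17.2 kb over all protein-coding genes. Among the 10940 genes at least as long as Nr4a2, the shortest of them, 10.4% had a Ctrl PHF2 peak and 1.08% a KO PHF2 peak. Because the set was chosen with these peaks known, nothing is read from its higher share.

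There were 7 Ctrl PHF2 peaks in all, since Nr3c2 had a pair. They fell into 3 wide peaks of 1605 to 2474 bp, at Nr3c1, Nr3c2 and Ncoa2, and 4 narrow ones of 428 to 519 bp, at Nr4a3, Ncoa1, Ncor1 and Nr3c2. The median width of the whole Ctrl list was 505 bp. The authors' fold enrichment, a ratio of the signal at a peak's summit to its local background, ran from 5.05 to 11.7, against a list median of 6.37. Of the 7 values, 4 lay above that median and 3 below. The window of 5 kb decided no case narrowly: the farthest peak inside it lay 1.25 kb from its gene, and the nearest outside it lay 114 kb from Nr4a2.

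**Figure D1:**
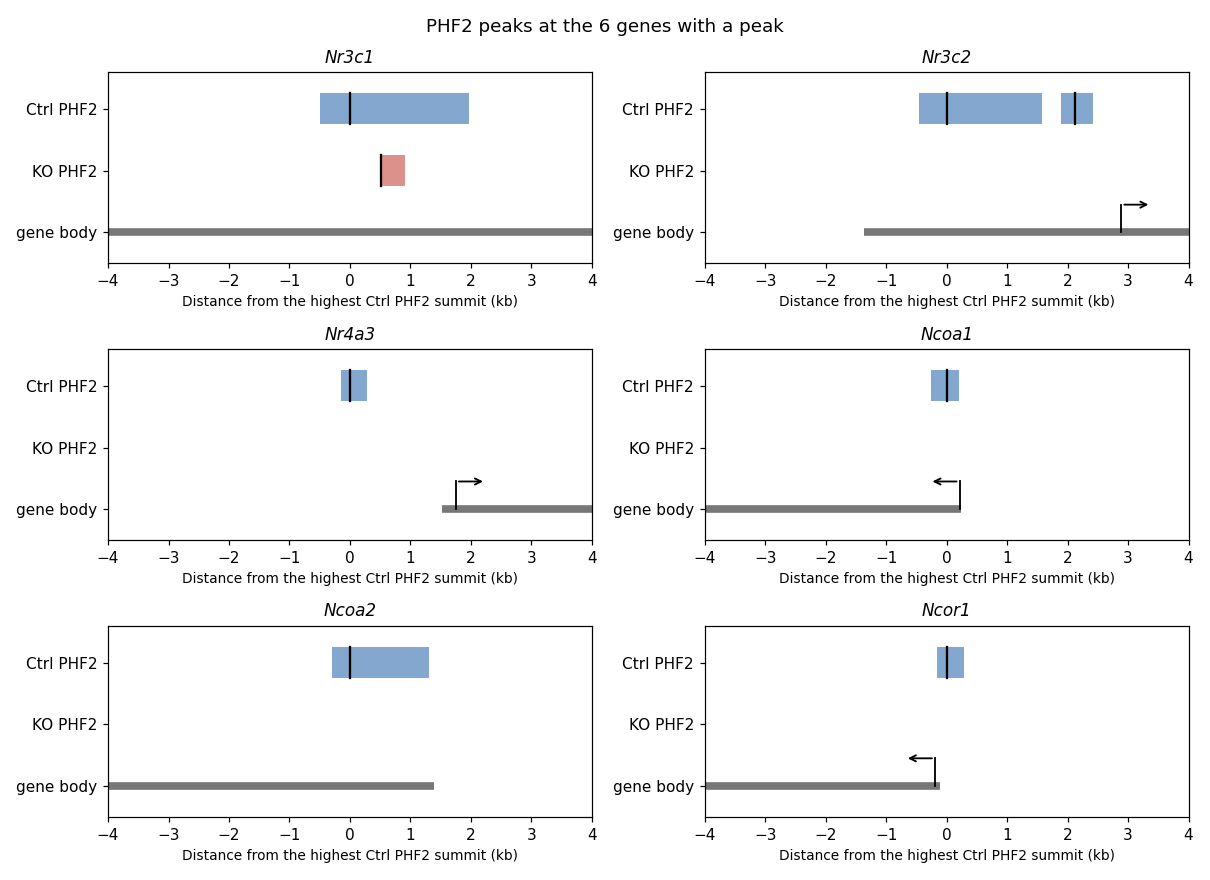
Position of PHF2 peaks at the 6 genes that had one. The x axis is the distance in kb from the highest Ctrl PHF2 summit, with genome coordinates rising to the right; blue bars are Ctrl and red bars KO peaks, black ticks are summits, grey lines the gene body and arrows the transcription starts in the RefSeq promoter table, which has none for Nr3c1 and Ncoa2. Only Nr3c1 has a red bar, and it lies inside the blue one.

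At Nr3c1 (Gene ID 14815, chromosome 18, 39410545 to 39519421) the Ctrl PHF2 peak ran from 39489141 to 39491614, inside the gene. At 2474 bp it was the 23rd widest of the 1621 Ctrl peaks, and its fold enrichment of 9.92 ranked 89th. The summit, at 39489639, lay 29782 bp from the upper end of the gene and 20.1% of the way along the peak. The RefSeq promoter table has no entry for Nr3c1, so the distance to a transcription start is not given, and exon and intron were not told apart. RefSeq has 15 transcripts for this gene, so the distance to the gene end does not show that the peak is far from a start. The summit held 29 tags (exact Poisson interval 19.4 to 41.6), the 26th highest of the list. Tags are sequenced fragments over the summit, recovered as whole numbers from the authors' fold and p.

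At Nr3c2 (Gene ID 110784, chromosome 8, 76898083 to 77245012) both Ctrl peaks lay inside the gene at its lower end. The wide one, from 76898979 to 76901014, had a fold enrichment of 11.7, the 33rd of the list and the highest among the 9 genes, with 25 tags at the summit (16.2 to 36.9). The narrow one followed after a gap of 323 bp, from 76901338 to 76901856. Its fold enrichment was 5.70 and its summit had 16 tags (9.15 to 26.0). Nr3c2 is on the plus strand, so the gene body begins at its lower end. The wide and narrow summits lay 1361 and 3487 bp inside that end. They were 2886 and 760 bp upstream of the start in the promoter table, at 76902330. Neither peak reached that start: the nearer edge was 474 bp from it. The first 1643 bp of the wide peak also lie inside Gm10649, a long non-coding RNA gene that overlaps this end of Nr3c2, so that peak cannot be assigned to either gene alone.

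Fold enrichment and tags ordered the wide peaks differently. Ncoa2, a coactivator gene of the same family as Ncoa1 and Ncoa3, had 27 tags at its summit (17.8 to 39.3), between Nr3c1 and Nr3c2, yet a fold enrichment of 6.18 that ranked 880th. The local background that the fold divides by was 2.0 at Ncoa2, 1.0 at Nr3c1 and 0.467 at Nr3c2, on the caller's scale. By tags the 3 summits differed by less than their counting error. The Ncoa2 peak ran from 13372543 to 13374147 on chromosome 1, inside the upper end of the gene (Gene ID 17978, 13139105 to 13374227), and its summit lay 1386 bp from that end. At 1605 bp it was the 86th widest Ctrl peak.

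**Figure D2:**
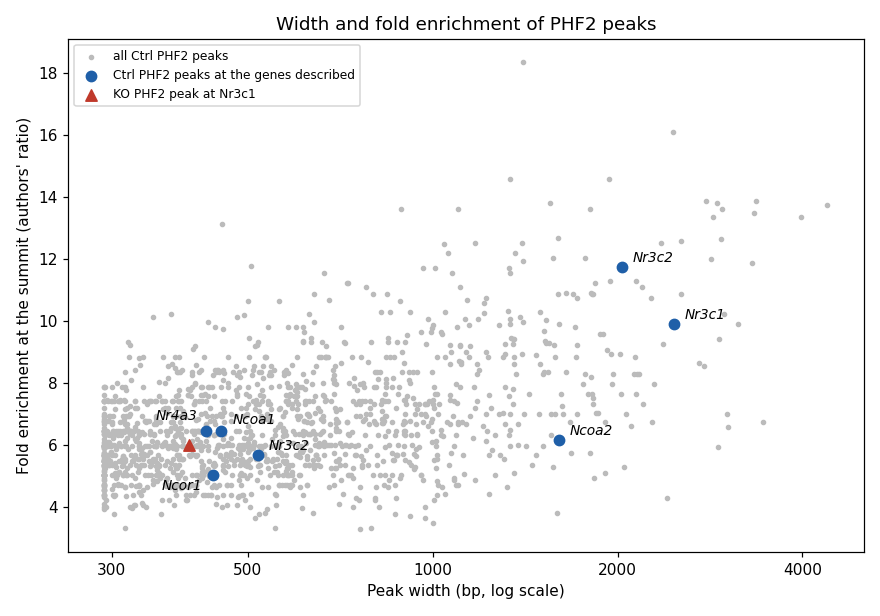
Width in bp (x axis, log scale) and the authors' fold enrichment at the summit (y axis) of all 1621 Ctrl PHF2 peaks (grey), the 7 at the genes described (blue) and the KO PHF2 peak at Nr3c1 (red). The peaks at Nr3c1 and Nr3c2 are both wide and high, with folds of 9.92 and 11.7, while that at Ncoa2 is wide at a fold of 6.18.

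Among the Nr4a genes only Nr4a3 (Gene ID 18124, chromosome 4, 48045078 to 48086447) had a peak. It ran from 48043402 to 48043829, outside the gene, with its summit 1751 bp upstream of the start at 48045305. It was narrow, at 428 bp, with a fold enrichment of 6.46 and 12 tags (6.2 to 21.0), the fewest of the 7 peaks. It lay beyond 1 kb from the gene body and is lost with a window of 1 kb. Nr4a1 (Gene ID 15370, chromosome 15, 101253902 to 101274795), whose product is also called Nur77, had no peak in any list, and the nearest Ctrl PHF2 peak was 1215 kb away. Nr4a2 (Gene ID 18227, chromosome 2, 57106830 to 57124003) had none either. Its nearest Ctrl PHF2 peak, 114 kb away, lay inside Gpd2, a mitochondrial glycerol phosphate dehydrogenase gene, where the KO list also had a peak.

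The promoters of the 3 Nr4a genes are shown because they share a motif while no peak covers any of them. They come from RefSeq (GRCm38.p6) and give the 250 bases before each start, read along the gene. Capitals mark the core of the cAMP response element (TGACG), to which CREB family factors bind, and the GC box (GGGCGG), to which Sp factors bind, each on either strand. Nr4a1 is at chr15:101266596-101266845 on the plus strand, Nr4a2 at chr2:57124004-57124253 on the minus strand and Nr4a3 at chr4:48045055-48045304 on the plus strand.
Nr4a1: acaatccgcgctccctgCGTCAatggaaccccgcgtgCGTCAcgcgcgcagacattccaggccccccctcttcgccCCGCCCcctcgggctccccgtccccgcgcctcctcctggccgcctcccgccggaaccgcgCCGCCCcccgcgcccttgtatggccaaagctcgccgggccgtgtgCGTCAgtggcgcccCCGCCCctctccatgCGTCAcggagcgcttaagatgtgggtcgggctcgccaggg
Nr4a2: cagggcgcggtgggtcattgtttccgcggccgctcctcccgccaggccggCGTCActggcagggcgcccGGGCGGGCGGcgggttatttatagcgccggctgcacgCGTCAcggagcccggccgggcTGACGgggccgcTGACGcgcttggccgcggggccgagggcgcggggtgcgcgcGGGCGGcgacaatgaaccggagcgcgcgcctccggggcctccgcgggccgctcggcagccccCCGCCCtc
Nr4a3: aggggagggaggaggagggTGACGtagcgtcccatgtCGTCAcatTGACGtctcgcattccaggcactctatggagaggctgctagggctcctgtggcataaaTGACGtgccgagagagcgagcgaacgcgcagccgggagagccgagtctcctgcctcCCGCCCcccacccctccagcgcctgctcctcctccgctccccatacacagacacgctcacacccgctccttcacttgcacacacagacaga

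Each of these promoters held 4 copies of the core motif TGACG. Over the 32851 promoter windows in the table, which reach 50 bases past the start, 20.8% held at least 1 copy. At least 4 copies were in 0.231%, or 76 windows. The motif contains a CpG, and these 3 windows held 26 to 52 CpGs against a median of 7. Windows of like CpG number were not compared. Among windows under a Ctrl PHF2 peak, 32.5% held at least 1 copy of the motif. This motif was chosen after the sequences were seen. The full element (TGACGTCA, both strands, which contains the core on each strand) was in none of them and in 1.79% of all windows. GC boxes, where neighbouring copies may overlap, numbered 3 at Nr4a1, 5 at Nr4a2 and 1 at Nr4a3 in the full windows, against 35.7% of all windows with any. None of the 3 held the NBRE (AAAGGTCA, 1.51% of all windows), the site that NR4A receptors themselves bind, or the AP-1 site (TGANTCA, 7.81%).

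Within this set, promoters with and without a peak had overlapping CpG numbers. The windows of Nr4a1, Nr4a2 and Nr4a3 held 35, 52 and 26 CpGs, and those of Ncoa1 and Ncor1, which a peak does cover in part, 49 and 36. The Nr3c2 window held 17. The median was 7 over all windows and 29 over the 934 that a Ctrl PHF2 peak overlapped. Most CpG-rich promoters had no peak: of 3837 windows with at least 30 CpGs, 11.5% overlapped a Ctrl PHF2 peak, and of 281 with at least 50, 16.0% did.

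**Figure D3:**
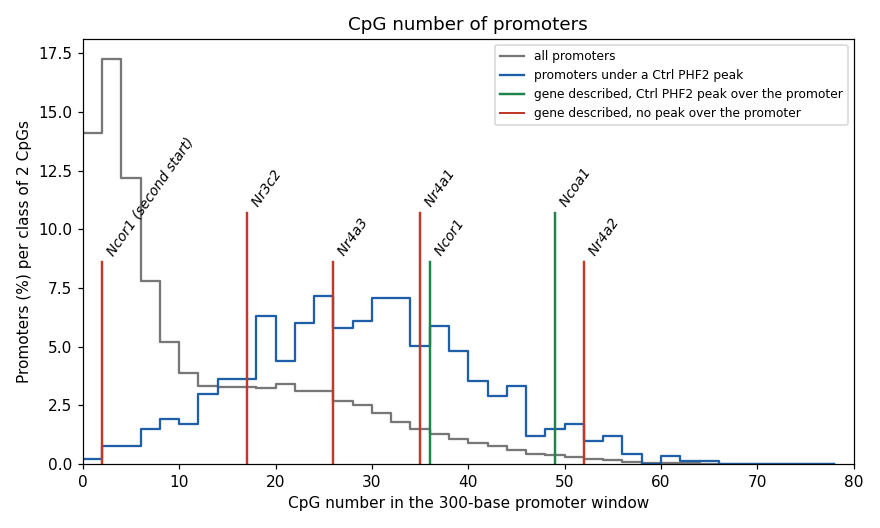
CpG number in the promoter window (x axis) and the percentage of promoters per class of 2 CpGs (y axis), for all 32851 promoters (grey) and the 934 under a Ctrl PHF2 peak (blue). Vertical lines mark the 7 promoter windows of the genes described, green where a Ctrl PHF2 peak overlaps the window and red where none does; Nr4a2, with 52 CpGs and no peak, lies to the right of Ncoa1, with 49 and a peak.

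At the coregulator genes the Ctrl peaks lay at the gene ends. At Ncoa1 (Gene ID 17977, chromosome 12, 4247362 to 4477206, minus strand), a steroid receptor coactivator gene, the peak ran from 4476716 to 4477168. It was 453 bp wide, with a fold enrichment of 6.45 and 20 tags (12.2 to 30.9), and its summit was 214 bp downstream of the start at 4477182. At Ncor1 (Gene ID 20185, chromosome 11, 62315663 to 62457414, minus strand), whose product tethers histone deacetylases to receptors without ligand, the peak ran from 62457366 to 62457804. Its fold enrichment of 5.05 was the lowest of the 7 and ranked 1354th of 1621, with 14 tags (7.65 to 23.5). The summit was 194 bp upstream of the start at 62457332, and 11.2% of the peak lay inside the gene. It was also 915 bp from the start of Pigl, which runs the opposite way and encodes an enzyme of GPI anchor synthesis, so the peak lies between both starts. A second Ncor1 start in the table, at 62438515, had no peak and 2 CpGs in its window. Ncoa3 (Gene ID 17979, chromosome 2, 165992637 to 166073242) had no peak in any list, and its nearest Ctrl PHF2 peak was 1187 kb away.

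The stretch of the Ncor1 promoter that the peak covers is shown with the promoter of Ncoa1 (RefSeq, GRCm38.p6). Of the 6 genes with a promoter in the table, only these had a window that a peak overlapped. The Ncoa1 peak ended 14 bp from the start. The Ncor1 stretch is chr11:62457366-62457582 on the minus strand, 217 bases that end 34 bases before the start, and Ncoa1 is the 250 bases before the start, chr12:4477183-4477432, also on the minus strand, which the peak does not reach. Capitals mark GC boxes; neither stretch holds the core motif TGACG.
Ncor1: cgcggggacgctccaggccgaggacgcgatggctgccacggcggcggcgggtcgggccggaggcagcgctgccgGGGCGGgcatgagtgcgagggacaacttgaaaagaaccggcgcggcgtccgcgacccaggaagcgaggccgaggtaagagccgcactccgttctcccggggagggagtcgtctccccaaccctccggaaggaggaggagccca
Ncoa1: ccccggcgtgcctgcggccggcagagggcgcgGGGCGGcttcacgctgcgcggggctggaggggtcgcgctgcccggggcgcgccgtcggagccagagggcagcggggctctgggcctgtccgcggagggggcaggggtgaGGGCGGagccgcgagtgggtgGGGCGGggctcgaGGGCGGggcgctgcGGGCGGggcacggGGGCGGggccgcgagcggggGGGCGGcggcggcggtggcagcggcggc

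The Ncoa1 promoter held 7 GC boxes and the Ncor1 stretch 1. Of all promoter windows under a Ctrl PHF2 peak, 74.5% held at least 1. The glucocorticoid receptor core motif (AGAACA, either strand) was in neither stretch, but the full Ncoa1 window held 1 copy, 38 bases downstream of the start, in the part that the peak covers. The window of the second Ncor1 start, which no peak overlaps, held 2 copies. The motif was in 19.0% of all promoter windows and in 8.46% of those under a Ctrl PHF2 peak.

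The comparison of genotypes came down to Nr3c1. The KO PHF2 peak there ran from 39490142 to 39490542 and lay wholly inside the Ctrl peak, of which it covered 16.2%. It was 401 bp wide, so the Ctrl peak was 6.17 times as wide. The KO summit, at 39490156, was 517 bp from the Ctrl summit and 14 bp from the peak's own edge. Its fold enrichment was 6.02, 116th of the 161 KO peaks, with a -log10 q of 2.96, and it is lost at a -log10 q of 3. Tags were taken at each list's own highest point: 29 in Ctrl and, at the other place, 14 in KO (7.65 to 23.5). The KO to Ctrl ratio was 0.483, with an exact interval of 0.236 to 0.943. It compares maxima at different positions, because the tags of either list at the summit of the other are unknown. The interval covers counting error only and does not show a change at a given position. Over all 114 Ctrl peaks with a KO peak the median ratio was 0.725 (quartiles 0.590 and 0.907), and 14 of them had a ratio at or below that at Nr3c1. The interval at Nr3c1 holds this median. The median likewise rests on each list's own summits, and only on places where a KO peak was called.

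The other 6 Ctrl peaks overlapped no KO PHF2 peak, which says only that none was called there. KO tags at these places were not measured. Over the whole Ctrl PHF2 list, 114 of 1621 peaks (7.03%) overlapped a KO PHF2 peak, so having none was common to most. The lowest summit in the KO list had 10 tags, and the Ctrl summits at Nr4a3 and Ncor1 had 12 and 14. For the narrow peaks absence from the KO list was the usual outcome: of 990 Ctrl peaks under 600 bp, 21 (2.12%) overlapped a KO peak. Wide peaks had a KO counterpart in a larger share. Of the 86 Ctrl peaks at least as wide as that at Ncoa2, 35 (40.7%) overlapped a KO peak. The share was 23 of 42 (54.8%) for those at least as wide as the wide one at Nr3c2, and 16 of 33 (48.5%) for those with at least its fold enrichment. Nr3c1 and Nr3c2 thus fell on opposite sides, and the nearest KO PHF2 peak to Nr3c2 was 3634 kb away.

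**Figure D4:**
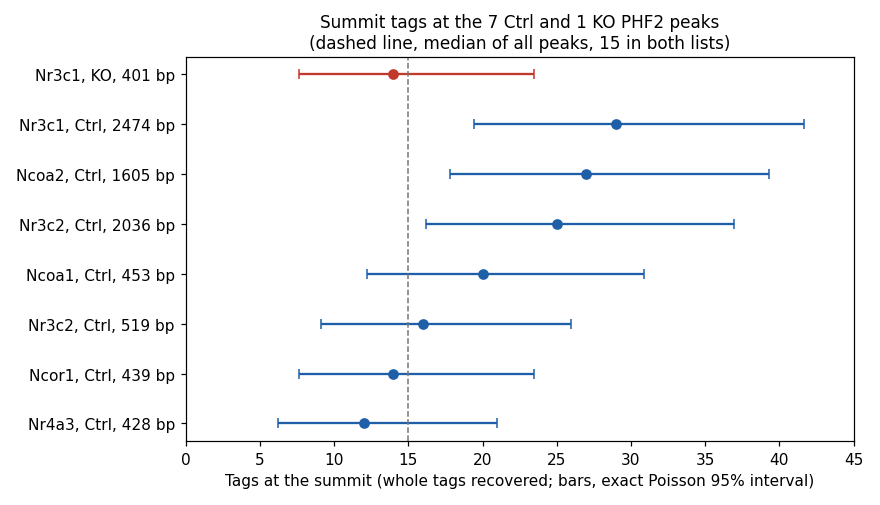
Tags at the summit (x axis) of the 7 Ctrl (blue) and 1 KO (red) PHF2 peaks at the genes described, each with its exact Poisson 95% interval; labels give the gene, genotype and peak width. The intervals of the 7 Ctrl peaks all overlap, from 12 tags at Nr4a3 to 29 at Nr3c1, which does not show that the counts are alike. The KO peak at Nr3c1 has 14, and the dashed line is the median of 15 in both lists.

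Other receptor and coregulator genes were read from lists written with earlier results of these data known. Their counts stand beside the 7.38% of all protein-coding genes with a Ctrl PHF2 peak and the 0.713% with a KO PHF2 peak, with no test. Of 49 nuclear receptor genes, 10 had a Ctrl PHF2 peak in their window and 1, Nr3c1, a KO PHF2 peak. Without the 5 receptor genes described above, 7 of 44 had a Ctrl peak. Beside Nr3c1, Nr3c2 and Nr4a3 these were led by Rora (fold enrichment 10.6), a clock receptor, Rxra (10.2), the shared partner of many receptors, Nr2f2 (8.58) and the retinoic acid receptor gene Rarb (8.16). Of 18 coactivator genes, 7 had a Ctrl PHF2 peak, or 5 of 15 without the 3 Ncoa genes described. Among these 5, Ppargc1b, a driver of mitochondrial gene expression, had the highest (10.2), in a peak of 2982 bp, followed by the acetyltransferase gene Kat2b (7.65), Med1 (6.07) and Ppargc1a (5.98). The peak counted for Med1 lay over 1 kb from it, at the neighbouring Fbxl20. Kat2b was the only coactivator gene with a KO PHF2 peak, and its fold enrichment there was 9.36. Of 11 corepressor genes, 3 had a Ctrl peak, or 2 of 10 without Ncor1, namely Tbl1xr1 (8.16) and Nrip1 (5.74). None had a KO peak.

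**Figure D5:**
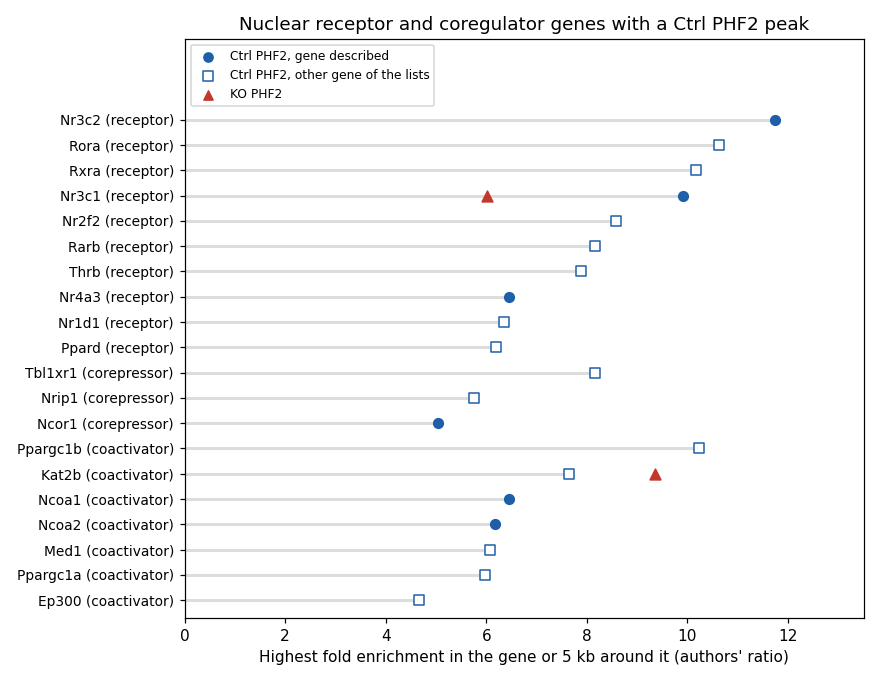
Highest fold enrichment of a Ctrl PHF2 peak (blue) and a KO PHF2 peak (red triangles) in the gene or 5 kb around it, for the 20 genes of the receptor, coactivator and corepressor lists with a Ctrl peak. Filled circles are the genes described and open squares other genes of the lists; Nr3c2, at 11.7, is the highest, and red triangles stand at Nr3c1 and Kat2b.

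Genes that act before and after the receptors were counted in the same windows. Of 12 genes that handle corticoids, such as the hormone-activating enzyme gene Hsd11b1 and the receptor chaperone genes Hsp90aa1, Hsp90ab1, Fkbp4 and Fkbp5, none had a PHF2 peak in either genotype. Of 26 genes that respond to glucocorticoids, 12 had a Ctrl PHF2 peak and 5 a KO PHF2 peak. The highest were at Foxo1 (13.3) and Foxo3 (10.9), which drive atrophy genes, Cebpd (9.59), a transcription factor gene, and the insulin receptor substrate gene Irs2 (9.07). The Cebpd peak also lay within 1 kb of Spidr. The 5 with a KO peak were Foxo1, Foxo3, Klf9, Dusp1 and Ddit4, and each of these KO peaks overlapped a Ctrl peak. Of 20 genes listed for a part in Nr4a induction, in either direction, or as Nr4a targets, 9 had a Ctrl PHF2 peak. They included the cAMP phosphodiesterase genes Pde4b (13.8) and Pde4d (7.41) and the muscle transcription factor gene Mef2d (8.15). The peak counted for Crtc2 lay over 1 kb from it, within 1 kb of the neighbouring Dennd4b. Pde4b was the only one of the 20 with a KO PHF2 peak, with a fold enrichment of 6.64. These counts stand beside the 7.38% and 0.713% of all protein-coding genes and carry no test.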

How the data were processed

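Each group was read from its sample title. Reads were mapped and peaks called with Bowtie2 and MACS2 on mm10, per the submitters' processing notes. Versions, settings, duplicate handling and the caller's control are not stated there. Each list's peak names hold 1 library, so libraries were called separately. The deposited lists have 10 narrowPeak columns: the authors' fold enrichment (a ratio), -log10 p, -log10 q, a deposited integer score (not used) and the summit. Starts were made 1-based. MACS2's fold, (pileup + 1) / (background + 1), and its Poisson p were solved for the pileup, which in units of a factor came out whole to within 0.001 tags. The factor was 0.649 in all Ctrl PHF2 and 0.609 in all KO PHF2 peaks, and the method was tested on simulated data. Genes and promoters (250 bases before to 50 after a start) came from RefSeq tables of GRCm38.p6; 6 of the 9 genes have a promoter there. Members, lists and motifs were chosen with earlier results of these data known. All 9 genes are named, and up to 4 others per list by the highest Ctrl PHF2 fold; 1 gene that this rule names is not reported here. Alternatives were other windows, the summit alone, a higher q limit, merging of near peaks, 2 further overlap rules, library scaling and all genes as background. Computation was in Python 3.11.15 (SciPy 1.17.1, NumPy 2.4.6, pandas 2.3.3; plots with matplotlib 3.10.9).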

Additional observations from a re-analysis of the deposited data

How the results depend on the processing

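Of 24 alternatives that could change a value, 19 left it within its limits (1.5 times for a count, the counting interval for the tag ratio) and 5 moved it. At a -log10 q of at least 3 the number of KO PHF2 peaks at the 9 genes went from 1 to 0, as did the number of genes with such a peak and the number of Ctrl peaks overlapping one. A reciprocal overlap of 50% also left 0 overlapping peaks. Merging peaks within 1 kb joined the pair at Nr3c2 and moved the median Ctrl width from 519 to 1029 bp. A window of 1 kb removed Nr4a3 and left 5 genes with 6 Ctrl peaks. A relative library size (KO to Ctrl, 1.013) was inferred from the lowest background and the factor of each list, not from reads, and scaling by it gave a tag ratio of 0.476 at Nr3c1. With genes of all kinds as background, which cannot change the count of 6 genes, 4.23% had a Ctrl PHF2 peak. No paired analysis was possible because the groups have 1 library apiece; leaving out a library was likewise not possible. The lowest listed summits had 8 tags in Ctrl PHF2 and 10 in KO PHF2; tags at places with no listed peak are unknown, so an absence does not show a lack of signal.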

Other observations

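The peak that Nr4a2 misses by distance has a counterpart in both genotypes. At Gpd2 the Ctrl PHF2 peak (chromosome 2, 57238001 to 57238997) had a fold enrichment of 8.37 with 16 tags, and the KO PHF2 peak (57238073 to 57238419) lay inside it, with a fold enrichment of 5.25 and 12 tags.

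Kat2b differed from Nr3c1 in the order of the genotypes by fold enrichment and width, but not by summit tags. Its KO PHF2 peak had a higher fold enrichment than its Ctrl peak (9.36 against 7.65), a larger width (533 against 480 bp) and fewer summit tags (19 against 24). The fold is taken over a local background set separately in each list, from a control that is not stated. The order by fold and the order by tags can therefore differ. With 1 library a genotype neither was tested.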
